A study of Mus musculus with 3 samples.

Results

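The genes described here are 46 genes of G2 phase and mitosis, taken as a fixed list of symbols from the 32285 genes of a mouse spleen B cell data set. All 46 were found by symbol and all 46 gave UMIs (unique molecular identifiers, each standing for 1 captured transcript) in B-lineage cells. The cells came from the spleens of 3 LDHA-sufficient mice (WT in the hashtag labels) and 3 LDHA-deficient mice (KO). LDHA, a subunit of lactate dehydrogenase, turns pyruvate into lactate at the end of glycolysis. The sources used here do not give the allele, the cells in which it is lost, or the age, strain and immunisation of the mice. Viable B cells were sorted with GL7, an antigen that B cells show when activated and in the germinal centre (GC). The cells were run together on 1 lane of a droplet 5′ kit, and antibody hashtags tell the mice apart. The mice are the replicates, so n = 3 per genotype unless stated otherwise, and a hashtag number names a mouse and pairs no mice.

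The labels of the hashtag library name another cell type (HSPCs), and the transcripts were checked against it. Cd79a, a part of the B cell receptor, had a UMI in 99.6% of the 1799 cells used, while of the progenitor markers Kit had a UMI in 0.111%, Flt3 in 3.34% and Cd34 in 0 of the cells, where a count of 0 allows up to 3 cells. Between 237 and 361 cells per mouse and between 1110942 and 2215409 UMIs per mouse were used, with a median of 3735 to 4303 UMIs per cell. Of the 2836 barcodes with transcripts, 2831 also had hashtag counts. Ldha stood at 234.7, 242.4 and 156.9 CPM (UMIs per 1000000 UMIs of the same mouse and class of cells) in the LDHA-sufficient mice. In the LDHA-deficient mice it stood at 49.36, 48.64 and 68.41 CPM, with no overlap (log2 fold change -1.93, edgeR adjusted p = 8.4e-05). Of the cell classes described below, the log2 fold change was -1.73 in non-GC B cells (edgeR adjusted p = 4.84e-13). It was -2.48 in activated B-like cells and nearest to 0 in GC B-like cells, at -1.07. These last fits held 1 mouse of a genotype, so only their effect sizes are given.

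Cells that divide copy their DNA in S phase, condense their chromosomes in G2 and early mitosis, pull the copies apart on a spindle and cleave the cell at the midzone. CDK1 with the A and B cyclins drives entry into mitosis, polo-like and Aurora kinases carry it through, and the anaphase-promoting complex ends it by marking cyclins for destruction. Transcripts of these genes accumulate late in the cycle under B-MYB and FOXM1 bound with the MuvB complex, and are held down in resting cells by the DREAM complex. GC B cells, above all those of the dark zone, are among the fastest dividing cells of the body, whereas follicular and marginal zone B cells mostly rest.

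The late cell cycle promoters can carry a cell cycle homology element (TTTGAA or TTCGAA) and CCAAT boxes (CCAAT), the binding sites known for MuvB and for NF-Y. RefSeq promoter windows (GRCm38.p6) were matched to 41 of the 46 genes by symbol. In the 250 bases before the start, searched on both strands and with each motif counted separately, the cell cycle homology element was found in 19 of these 41 genes (46.3%), against 19.6% of all 27025 genes with a window. A CCAAT box was found in 31 of the 41 (75.6%), against 37.5% of all genes. The 120 bases before the start are shown for the matched genes among those fixed for display, which are named with values below. They are the proliferation marker Mki67, topoisomerase Top2a, Cdk1, cyclin Ccnb1 and the polo-like kinase Plk1. A link of the motifs to the levels was not tested. Each run is given 5′ to 3′ on the strand of its gene, and capitals mark matches of either motif on either strand.
Mki67 (ENSMUSG00000031004, chr7:135716380-135716499, minus strand): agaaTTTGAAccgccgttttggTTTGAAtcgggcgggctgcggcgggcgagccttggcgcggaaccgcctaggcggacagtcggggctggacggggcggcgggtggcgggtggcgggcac
Top2a (ENSMUSG00000020914, chr11:99024190-99024309, minus strand): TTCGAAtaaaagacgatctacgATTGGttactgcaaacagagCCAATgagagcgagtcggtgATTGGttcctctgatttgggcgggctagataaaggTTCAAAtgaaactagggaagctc
Cdk1 (ENSMUSG00000019942, chr10:69352913-69353032, minus strand): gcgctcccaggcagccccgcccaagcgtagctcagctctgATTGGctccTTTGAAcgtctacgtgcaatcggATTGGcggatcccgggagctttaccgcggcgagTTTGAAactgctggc
Ccnb1 (ENSMUSG00000041431, chr13:100786487-100786606, minus strand): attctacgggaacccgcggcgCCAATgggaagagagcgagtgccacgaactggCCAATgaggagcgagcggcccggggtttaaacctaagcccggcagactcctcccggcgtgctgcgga
Plk1 (ENSMUSG00000030867, chr7:122159315-122159434, plus strand): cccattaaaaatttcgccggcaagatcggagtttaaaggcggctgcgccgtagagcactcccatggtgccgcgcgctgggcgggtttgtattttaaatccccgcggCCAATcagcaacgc
Within 250 bases of the start, Top2a had 4 cell cycle homology elements and 6 CCAAT boxes, and Cdk1 and Mki67 had 2 and 3 each. Ccnb1 had 2 CCAAT boxes and Plk1 had 1, and these letters of the cell cycle homology element were not in either window. A match of letters is a description of the window and shows no binding.

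Across B cell states the 46 genes were at their highest in GC B-like cells, a cluster led by Mybl1, Basp1, Nuggc and Mef2b. Clusters were made without any of the 46 genes, so these were not used to set them. Lists of other G2 and mitosis, S phase and other cycle-linked genes and the histone genes were left out too. The lists of activators of late cell cycle transcription and of repressors and cycle inhibitors were not among those left out. Summed over the 46 genes, GC B-like cells held 10410 CPM in LDHA-sufficient mice. Each of the 46 genes had its highest level in this cluster, out of 9 clusters. Pooled over LDHA-sufficient mice, GC B-like cells gave 71.2% of the UMIs of the 46 genes. By mouse they gave 75.0%, 76.3% and 44.3%, and more than 50% of the UMIs of 46, 46 and 18 of the 46 genes, so that mouse 3 stood apart. The marginal zone B-like cluster followed with 3578 CPM, and the plasma cell-like cluster stood at 2524 CPM with single mice between 268.4 and 4034 CPM on 15 cells. The follicular B-like clusters stood at 775.1 and 989.5 CPM and the activated or pre-GC B-like cluster, led by Egr3, Nr4a1 and Myc, at 951.5 CPM. In these pooled values the activated cluster lay between the follicular ones, but the order changed with the mouse. It lay below both in LDHA-sufficient mouse 1 (767.5 against 837.8 and 1051 CPM) and above both in mouse 3 (1230 against 750.5 and 928.4 CPM). Pooled over LDHA-deficient mice it lay below both (793.9 against 870.3 and 1000 CPM). Clusters led by interferon genes (898.4, 2978 and 1052 CPM in single LDHA-sufficient mice, with mouse 2 apart), by Pxdc1 (849.5 CPM) and by the macrophage genes Vcam1, Hmox1 and C1qb (1652 CPM, 46 cells in all mice) held the rest, and the last of these gave 0.373% and 1.23% of the UMIs of the 46 genes in LDHA-sufficient and LDHA-deficient mice.

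**Figure D1:**
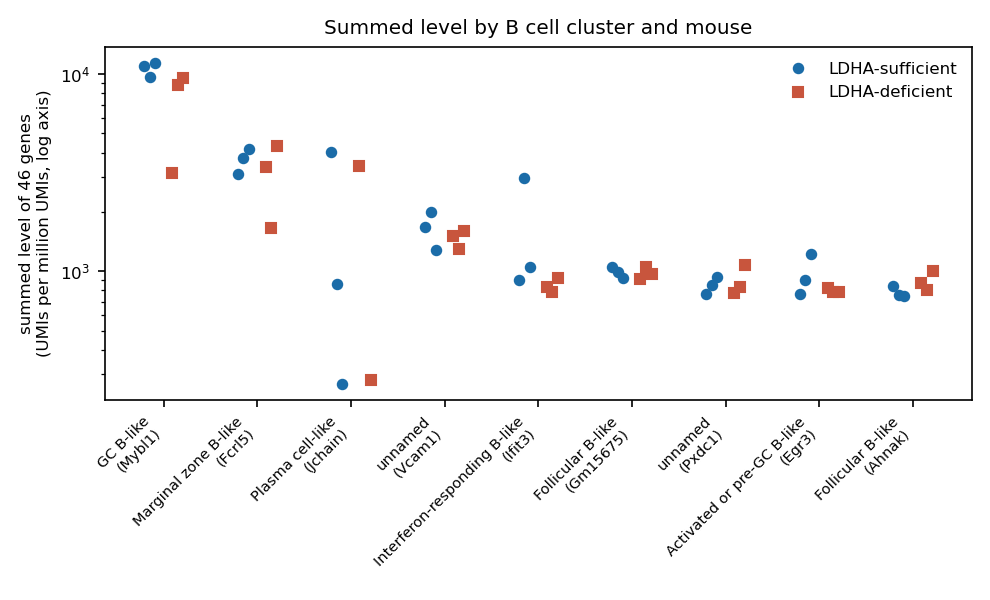
Summed level of the 46 genes (CPM, log axis) in each B cell cluster, 1 point per mouse, with the leading gene of each cluster in brackets. GC B-like cells lie highest at up to 11370 CPM in single mice, except for LDHA-deficient mouse 1 at 3154 CPM on 3 cells, and the follicular and activated clusters lie near 1000 CPM in both genotypes.

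The genes differed in how far GC B-like cells stood above non-GC B cells (all other B-lineage cells without plasma cell-like cells). In the pooled LDHA-sufficient cells the ratio of the 2 levels ranged from 2.74 to 12.8, with a median of 6.35. It was highest for Cenpe, the kinetochore motor that lines up chromosomes (370.5 CPM in GC B-like and 29.0 CPM in non-GC B cells, 12.8-fold). Nek2, a kinase that splits the centrosomes (12.1-fold), and Kif2c, a kinesin that takes microtubule ends apart (10.5-fold), came next. The ratio was lowest for the microtubule polymerase Ckap5 (2.74-fold), for Cenpa, the histone of centromeres (3.11-fold), and for the histone H2A.Z chaperone Anp32e (3.18-fold). In non-GC B cells Anp32e stood at 200.9 CPM and Ckap5 at 62.52 CPM, against 638.7 and 171.0 CPM in GC B-like cells. In follicular B-like cells Anp32e and the condensin subunit Smc4 together made up 30.4% of the summed UMIs of the 46 genes. In GC B-like cells Mki67 and Top2a made up 28.4% together. These are shares of UMIs, with no correction for transcript length.

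Outside the GC, a finer clustering (resolution 1.2) set apart 55 cells with a high level of the 46 genes, singled out after their values were seen. All of them lay in the marginal zone B-like cluster before. They were led by Nrgn, S100a6, Bhlhe41 and Cd36 and had no name by the fixed markers. They held a median of 12300 UMIs per cell and 5299 CPM of the 46 genes in LDHA-sufficient and 6632 CPM in LDHA-deficient mice. By mouse the summed level was 3413, 6744 and 6648 CPM in the LDHA-sufficient and 6730, 5824 and 6837 CPM in the LDHA-deficient mice, so the genotypes overlapped. As shares of all B-lineage cells they were 4.09%, 3.36% and 2.48% for LDHA-sufficient mice against 4.38%, 1.11% and 3.38% for LDHA-deficient mice, again overlapping. The remaining marginal zone B-like cells of this clustering stood at 701.8, 662.9 and 579.9 CPM in single LDHA-sufficient mice and at 820.2, 745.4 and 2484 CPM in single LDHA-deficient mice, with mouse 3 apart from the rest. In LDHA-deficient mice the unnamed cells gave 30.7% of the UMIs of the 46 genes and GC B-like cells 17.3%, while in LDHA-sufficient mice the shares were 9.22% and 72.8%, all pooled over mice. The order was not the same in every LDHA-deficient mouse: by mouse, and with the GC B-like cells of the main clustering, the unnamed cells gave 49.7%, 12.2% and 30.8% and GC B-like cells 2.90%, 27.0% and 21.1%, so that it was turned in mouse 2.

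Over all B cells of a mouse, the 46 genes were lower in LDHA-deficient mice. Their summed level was 5167, 4970 and 2514 CPM in the LDHA-sufficient and 1728, 1363 and 2231 CPM in the LDHA-deficient mice, a 2.38-fold difference of means (4217 ± 1480 against 1774 ± 436 CPM, SD). The genotypes did not overlap, although LDHA-sufficient mouse 3 lay close to LDHA-deficient mouse 3. In the quasi-likelihood test of edgeR over all 9170 genes tested, 22 of the 46 genes fell at an adjusted p under 0.05 and none rose. Among all genes tested 1.06% fell and 0.229% rose by the same rule. All 46 had a negative log2 fold change, with a median of -1.38, against 48.2% of all genes and a median of 0.01. In 31 of the 46 genes every LDHA-deficient mouse lay below every LDHA-sufficient mouse, and 9.41% of all genes tested did so. The opposite order was found for none of them and for 10.1% of all genes. The count of 22 rested on few mice, and the calls over all genes moved with it: it was 12 without LDHA-sufficient mouse 1 or 2, 41 without LDHA-sufficient mouse 3, and 6, 0 and 2 without LDHA-deficient mouse 1, 2 and 3, while the median stayed between -1.60 and -1.13 under all 11 alternatives. Of all genes, 9.0% were called lower and 5.79% higher without LDHA-sufficient mouse 3, between 0.4% and 0.464% lower without LDHA-sufficient mouse 1 or 2, and between 0.0108% and 0.209% lower without 1 of the LDHA-deficient mice.

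**Figure D2:**
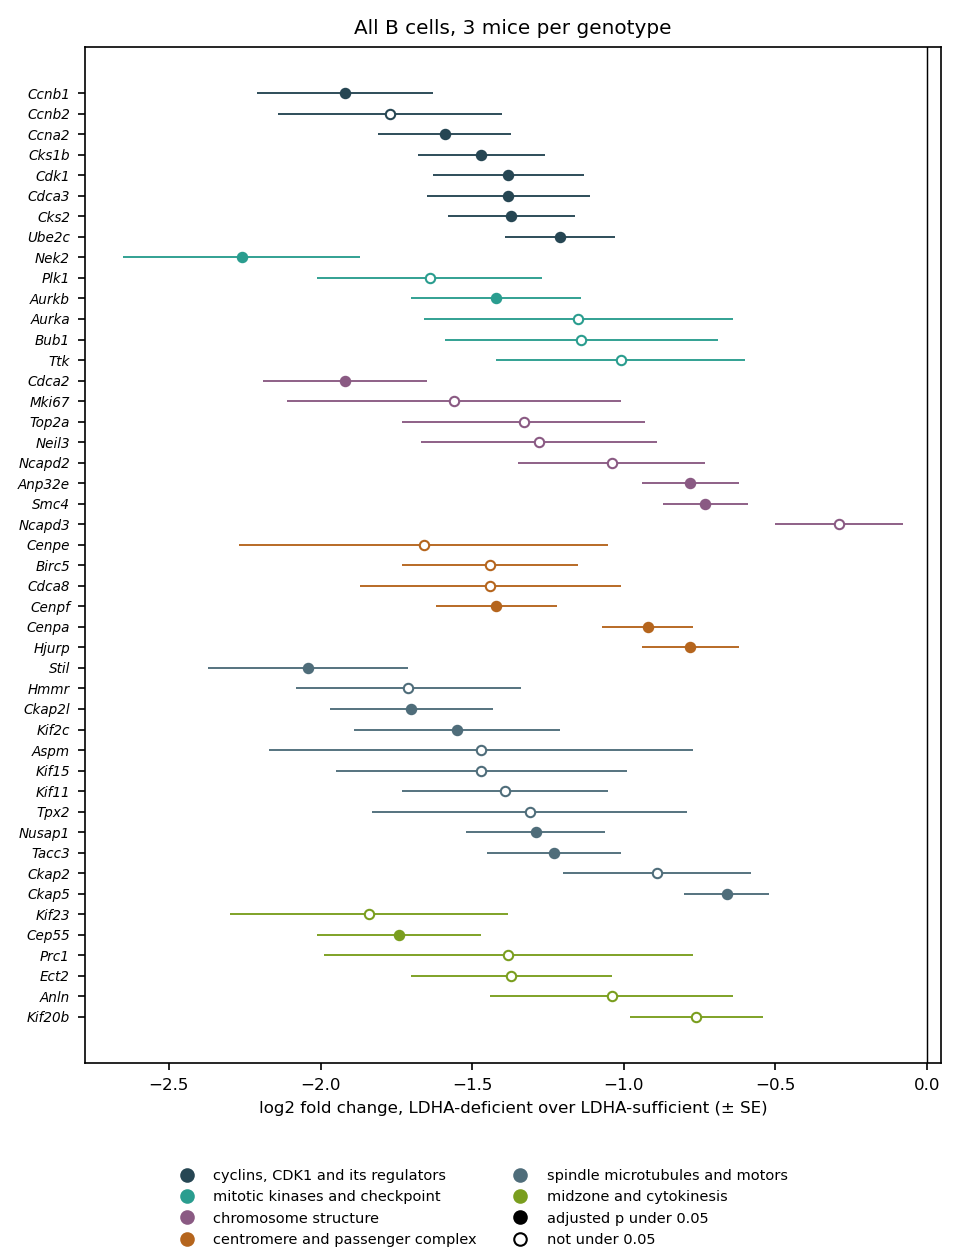
Log2 fold change of each of the 46 genes over all B cells (LDHA-deficient over LDHA-sufficient, ± SE, 3 mice per genotype), coloured by role, with filled points for an adjusted p under 0.05. All 46 points lie left of 0, from -2.26 for Nek2 to -0.29 for Ncapd3.

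Among cyclins, CDK1 and its regulators, 7 of 8 genes fell (median log2 fold change -1.42). Ccna2, the cyclin of S phase and G2, stood at 78.1, 96.8 and 51.1 CPM in the LDHA-sufficient and at 26.2, 19.9 and 30.6 CPM in the LDHA-deficient mice (log2 fold change -1.59, SE 0.22, edgeR adjusted p = 0.00487). Ccnb1, the mitotic cyclin, stood at 37.9, 41.9 and 22.4 CPM against 13.1, 7.03 and 7.20 CPM (-1.92, SE 0.29, adjusted p = 0.00487). Both genes kept the genotypes apart, with LDHA-sufficient mouse 3 the lowest of its group. Cdk1, whose promoter above holds both motifs, stood at 53.3, 50.7 and 35.0 CPM against 19.3, 10.5 and 26.1 CPM (-1.38, SE 0.25, adjusted p = 0.0159). Ccnb2 was the member of this group that did not pass (-1.77, adjusted p = 0.0669). The other members were Cks1b and Cks2, small subunits of CDK complexes, Ube2c, the ubiquitin conjugating enzyme of the anaphase-promoting complex, and Cdca3, with log2 fold changes between -1.47 and -1.21.

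Of the mitotic kinases and checkpoint genes, 2 of 6 fell (median -1.28). Nek2 stood at 45.1, 37.2 and 14.7 CPM in the LDHA-sufficient and 6.17, 6.45 and 8.10 CPM in the LDHA-deficient mice (-2.26, SE 0.39, adjusted p = 0.018). Aurkb, the kinase of the chromosomal passenger complex, stood at 60.9, 48.9 and 25.2 CPM against 16.97, 18.8 and 14.4 CPM (-1.42, SE 0.28, adjusted p = 0.0337). Neither gene overlapped between genotypes. Plk1 stood at 44.2, 46.1 and 19.6 CPM against 11.6, 7.03 and 18.9 CPM and did not pass (-1.64, SE 0.37, adjusted p = 0.0692), although it too did not overlap. The centrosome kinase Aurka and the checkpoint kinases Bub1 and Ttk had adjusted p between 0.235 and 0.309.

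Among the chromosome structure genes, 3 of 8 fell (median -1.16). Cdca2, a partner of protein phosphatase 1 on chromosomes, had the smallest p of all 46 genes, at 42.9, 41.9 and 27.3 CPM against 8.48, 7.03 and 15.3 CPM (-1.92, SE 0.27, adjusted p = 0.00386). Smc4 fell by less, from 244.5 ± 58.3 to 146.4 ± 12.4 CPM (-0.73, SE 0.14, adjusted p = 0.0186), and so did Anp32e (-0.78, SE 0.16, adjusted p = 0.0312). Mki67 and Top2a did not pass despite larger fold changes. Mki67 stood at 937.1, 850.6 and 314.6 CPM in the LDHA-sufficient and 202.1, 155.9 and 352.9 CPM in the LDHA-deficient mice (-1.56, SE 0.55, adjusted p = 0.284), so that LDHA-deficient mouse 3 lay above LDHA-sufficient mouse 3. Top2a stood at 530.4, 445.3 and 235.4 CPM against 168.1, 103.1 and 209.7 CPM with no overlap (-1.33, SE 0.40, adjusted p = 0.224). Ncapd3, a condensin II subunit, had the value nearest to 0 of the 46 genes (-0.29, adjusted p = 0.495).

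Of the centromere and passenger complex genes, 3 of 6 fell (median -1.43). Cenpa stood at 79.9, 88.9 and 65.9 CPM against 46.3, 37.5 and 39.6 CPM (-0.92, SE 0.15, adjusted p = 0.00595), and Cenpf, a kinetochore protein of late G2, at 121.0, 130.8 and 73.6 CPM against 44.0, 31.6 and 47.7 CPM (-1.42, SE 0.20, adjusted p = 0.00636). Hjurp, the chaperone that loads Cenpa, was the other gene that fell (-0.78). Cenpe stood at 166.1, 155.4 and 54.6 CPM against 27.0, 28.1 and 68.4 CPM, with overlap, and did not pass (-1.66, SE 0.61, adjusted p = 0.293).

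Of the spindle microtubule and motor genes, 6 of 12 fell (median -1.43), and of the midzone and cytokinesis genes 1 of 6 (median -1.38). Stil, needed to build new centrioles, stood at 27.1, 27.0 and 15.4 CPM against 6.94, 3.52 and 7.20 CPM (-2.04, SE 0.33, adjusted p = 0.00595). Ckap2l, a spindle protein, stood at 53.7, 58.6 and 28.0 CPM against 14.7, 11.7 and 18.0 CPM (-1.70, SE 0.27, adjusted p = 0.00595). Tacc3, Nusap1, Kif2c and Ckap5 also fell, by log2 values between -1.55 and -0.66. Cep55, which recruits the machinery of the final cut, was the midzone gene that fell, at 42.4, 51.2 and 29.4 CPM against 10.0, 9.38 and 18.9 CPM (-1.74, SE 0.27, adjusted p = 0.005). Ect2, which activates RhoA for the contractile ring, did not pass (-1.37, SE 0.33, adjusted p = 0.0669).

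The question the design raises is how much of this difference lies in the number of GC cells and how much in the level within them. GC B-like cells were 59 of 318, 68 of 327 and 12 of 282 cells in the LDHA-sufficient mice (18.6%, 20.8% and 4.26%) and 3 of 274, 5 of 361 and 3 of 237 cells in the LDHA-deficient mice (1.09%, 1.39% and 1.27%). The exact 95% binomial intervals of LDHA-sufficient mouse 3 (2.22% to 7.32%) and of the LDHA-deficient mice (0.226% to 3.65%) overlapped, while its value lay above all of theirs. The mean difference was 13.3 percentage points (14.5% ± 8.97 against 1.25% ± 0.146, SD), with an exact two-sided permutation p of 0.1, the smallest that 3 mice against 3 can give. Because GC B-like cells held more UMIs per cell, they gave 35.3%, 39.0% and 9.79% of all UMIs in the LDHA-sufficient mice, against 1.59%, 4.16% and 4.94% in the LDHA-deficient mice.

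**Figure D3:**
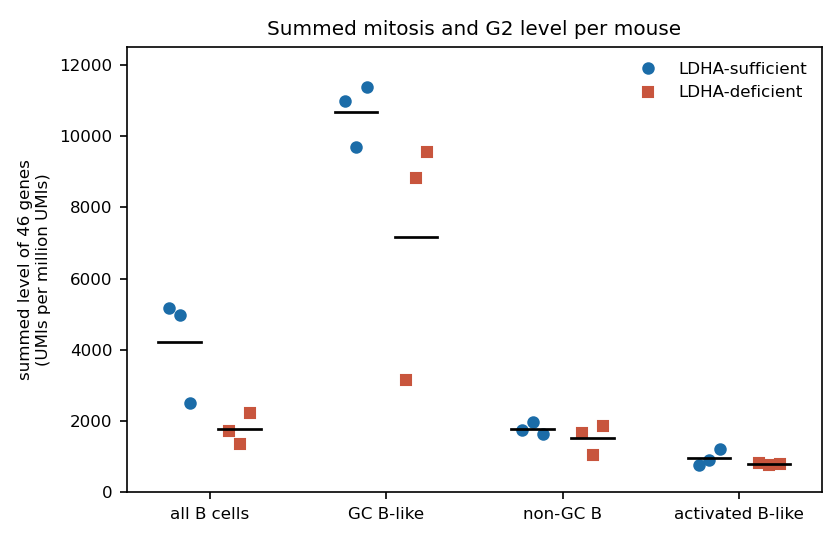
Summed level of the 46 genes (CPM) in all B cells and in 3 classes of cells, 1 point per mouse with bars at the mean of each genotype. The genotypes separate over all B cells, and in GC B-like cells 1 LDHA-deficient mouse with 3 such cells lies at 3154 CPM while the other two lie at 8836 and 9555 CPM.

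The difference in summed level was split, for each of the 9 pairs of an LDHA-sufficient with an LDHA-deficient mouse, into a part from the share of UMIs in each class (GC B-like, plasma cell-like and other B cells) and a part from the level within each class, each weighted by the average of the pair. On average the difference was 2443 CPM, of which 1736 CPM (71.1%) came with the shares, 498.3 CPM (20.4%) with the level within GC B-like cells and 208.2 CPM (8.52%) with the level within the other classes. The share part was larger than both level parts added together in 8 of the 9 pairs. It ranged from 355.6 to 2836 CPM, or from 38.1% to 126% of the difference. The part within GC B-like cells ranged from 33.5 to 1443 CPM, and its 2 highest values belonged to LDHA-deficient mouse 1. The part within other classes took both signs, from -206.3 to 721.6 CPM. Both level parts rested on single mice: without LDHA-deficient mouse 1 the part within GC B-like cells was 207.1 CPM (8.56%), and without LDHA-deficient mouse 2 the part within other classes was 12.01 CPM (0.537%). When the cells were clustered with cycle genes included, the share part came to 109%, with 8, 6 and 5 cells of the LDHA-deficient mice in the GC B-like clusters.

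**Figure D4:**
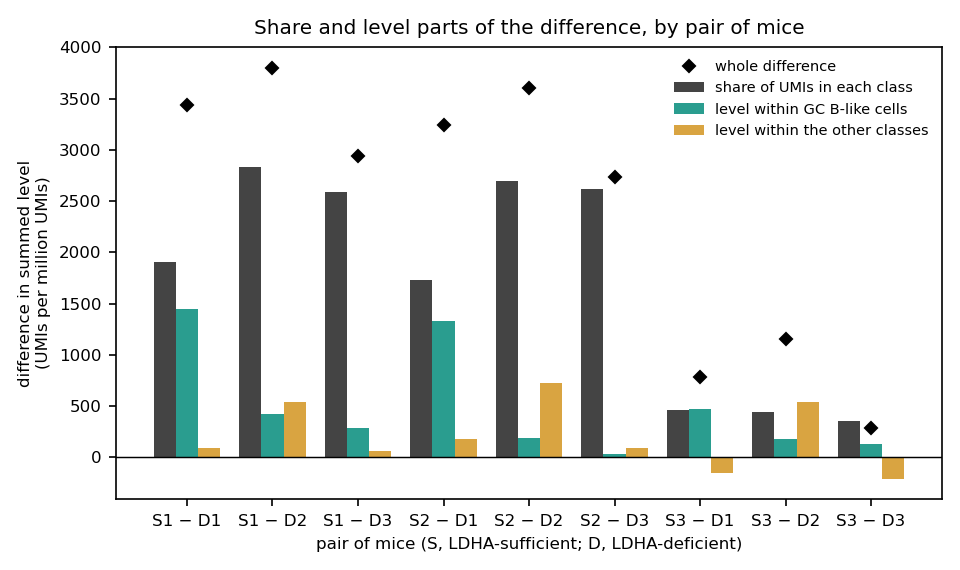
Parts of the difference in summed level (CPM, LDHA-sufficient minus LDHA-deficient) for each of the 9 pairs of mice, with a diamond for the whole difference. The share part is larger than both level parts added together in 8 of 9 pairs. Pairs with LDHA-sufficient mouse 3 differ least, by as little as 283.2 CPM. In its pairs with LDHA-deficient mice 1 and 2 a single level bar (467.6 and 535.7 CPM) passes the share bar (466.0 and 438.0 CPM).

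Taken gene by gene, the share part made up more than 50% of the mean difference in 40 of the 46 genes, with a median of 70.7%. It was 80.4% for Top2a, 75.2% for Mki67 and 84.7% for Smc4. It was 48.9% for Ccna2, 49.5% for Ccnb1 and 58.0% for Cdk1, and lowest for Ckap2l at 40.8%. In 6 genes it was above 100%, up to 221% for Ncapd3, and there the levels within classes were on balance higher in LDHA-deficient mice. With the unnamed cells of the finer clustering as a class of their own, the share of GC B-like cells alone came with 2198 CPM of the 2443 CPM, all shares together with 77.0% of it, the level within GC B-like cells with 20.8%, and the level within the unnamed cells with -3.44%.

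Within GC B-like cells no gene of the 46 that could be tested with 3 mice against 3 passed. The LDHA-deficient side rested on 11 cells. The summed level was 10980, 9708 and 11370 CPM in the LDHA-sufficient and 3154, 8836 and 9555 CPM in the LDHA-deficient mice, on 65, 627 and 524 UMIs of the 46 genes in the latter. All 3 LDHA-deficient values lay below the LDHA-sufficient ones, those of mice 2 and 3 by little (10690 ± 872 against 7182 ± 3510 CPM, SD). LDHA-deficient mouse 1 had 3 cells with a median of 6547 UMIs and no UMI of 19 of the 46 genes. Of the GC markers its cells carried Bcl6 at 3, S1pr2 at 2, Rgs13 at 9 and Mef2b at 1 UMI, out of 20608 UMIs in all. Only LDHA-deficient mouse 2 met the minimum of 5 cells set for the test, which therefore compared 3 mice with 1 and took the spread of the lone mouse to be that of the others. In that fit 0 of 46 genes had an adjusted p under 0.05 and 4 had an unadjusted p under 0.05 (Cdk1, Hjurp and Ckap2l with negative values, Ncapd2 at 0.66), against 7.79% of all genes, while DESeq2 called 0 with 2 under 0.05 (1.39% of all genes). The 4 are thus close to the share among all genes, and the median log2 fold change was -0.31 (all 7198 genes -0.14). The rule called 0.0% of all genes lower and 0.0139% higher. Values were negative for 31 of the 46 genes and 56.9% of all genes.

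With no minimum, 3 mice against 3, 32 of the 46 genes had enough counts to be tested. None of them passed (0.0% of all 1945 genes in either direction), 26 had a negative value (50.1% of all genes), 5 had an unadjusted p under 0.05 (5.81% of all genes), and DESeq2 called 0 as well with 5 under 0.05 (4.06% of all genes). The 5 genes were Cdk1 (log2 value -1.95), Cenpf (-1.17), Ckap2l (-1.66), the spindle protein Hmmr (-1.30) and the spindle kinesin Kif15 (-1.27), all with an adjusted p of 0.763. Of Cdk1 there were 80, 89 and 27 UMIs in the GC B-like cells of the LDHA-sufficient and 2, 0 and 2 in those of the LDHA-deficient mice. Ccnb1 gave 69, 62 and 22 UMIs against 0, 4 and 2, and Cenpf 209, 214 and 57 against 0, 14 and 4. Mki67 gave 1697, 1459 and 230 UMIs against 7, 108 and 122, which made 2172, 1739 and 1646 CPM against 339.7, 1522 and 2225 CPM, and Top2a stood at 1157, 891.5 and 973.6 CPM against 485.3, 1043 and 1094 CPM. For both of these genes LDHA-deficient mice 2 and 3 lay within or next to the LDHA-sufficient range. In 12 of the 46 genes the LDHA-deficient mice all lay below the LDHA-sufficient ones, against 12.9% of all genes, and in none above, against 2.83%. These shares compare all 6 mice but are taken over the 7198 genes kept by the fit with the minimum of cells.

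**Figure D5:**
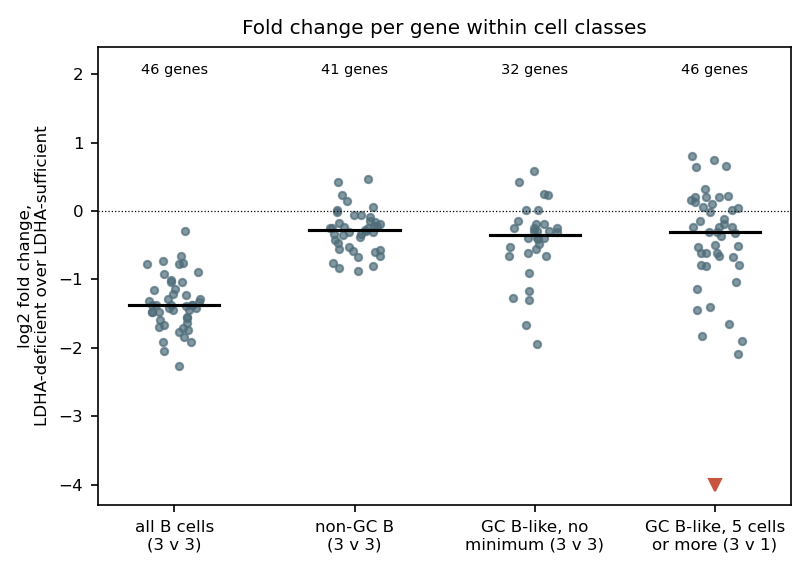
Log2 fold change (LDHA-deficient over LDHA-sufficient) of each gene of the 46 that was tested, in all B cells, non-GC B cells and GC B-like cells without and then with a minimum of cells per mouse, with a bar at the median. The medians are -1.38, -0.28, -0.34 and -0.31, and the triangle stands for Cdk1, below the axis because the only LDHA-deficient mouse in that fit had 0 UMIs.

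By role, the summed cyclin and CDK1 group in GC B-like cells stood at 1349, 1410 and 2019 CPM in the LDHA-sufficient and 388.2, 1226 and 857.1 CPM in the LDHA-deficient mice, and the spindle group at 1879, 1615 and 1933 CPM against 873.4, 1381 and 1094 CPM. The centromere group stood at 1412, 1372 and 1754 CPM against 291.1, 1254 and 1131 CPM, and the midzone group at 823.1, 660.3 and 837.5 CPM against 291.1, 591.9 and 547.1 CPM. In these 4 groups the genotypes did not overlap. The mitotic kinases overlapped, at 491.6, 405.2 and 451.0 CPM against 145.6, 352.3 and 455.9 CPM. The chromosome structure group, which holds Mki67 and Top2a, overlapped too, at 5028, 4245 and 4381 CPM against 1165, 4030 and 5471 CPM. These sums have no test here. Other G2 and mitosis genes overlapped, at 9441, 9467 and 9743 CPM against 5095, 9456 and 8917 CPM. S phase genes, such as those of the replication fork, overlapped in the same cells with 9489, 9348 and 6027 CPM against 6551, 9245 and 10360 CPM. Activators of late cell cycle transcription overlapped, at 960.1, 791.4 and 680.1 CPM against 824.9, 775.1 and 820.6 CPM. Repressors and cycle inhibitors did not overlap, at 1150, 1081 and 1324 CPM against 922, 859.6 and 747.7 CPM. A lower sum without overlap was thus not particular to the 4 groups, and no share over all genes is given for it.

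In non-GC B cells 41 of the 46 genes were tested and none passed. The summed level was 1748, 1971 and 1631 CPM in the LDHA-sufficient and 1667, 1039 and 1861 CPM in the LDHA-deficient mice, with LDHA-deficient mouse 2 the lowest and the others overlapping (1783 ± 172 against 1522 ± 430 CPM, SD). By edgeR 8 genes had an unadjusted p under 0.05 (5.11% of all genes) and by DESeq2 2 did (1.33%), and over all 8779 genes 0.0683% were called lower and 0.0114% higher. The smallest p was that of Ccna2, at 32.9, 43.4 and 36.3 CPM against 26.4, 16.5 and 25.7 CPM (log2 value -0.76, adjusted p = 0.262), followed by Cks1b (-0.58, adjusted p = 0.434). The median over the tested genes was -0.28 with all mice and -0.02 without LDHA-deficient mouse 2. Genotypes stayed apart, LDHA-deficient lower, for 6 of the 41 genes, against 5.01% of all genes, and the opposite held for 0, against 5.48%. Negative values were found for 35 of the 41 genes and 50% of all genes.

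Activated or pre-GC B-like cells, with 57 LDHA-sufficient and 75 LDHA-deficient cells, held the 46 genes at 767.5, 902.5 and 1230 CPM against 826.3, 782.1 and 786.1 CPM. The values overlapped. A minimum of 20 cells left only LDHA-sufficient mouse 2 on its side, and 4 of the 46 genes could be tested, with 0 calls by edgeR and 0 under an unadjusted p of 0.05 (DESeq2 0 and 0). The same rule called 0.168% of all 2979 genes lower and 0.134% higher, and 3 of the 4 genes and 48.7% of all genes had a negative value. With no minimum of cells 2 genes could be tested and 0 passed, while 0.0544% of all 1839 genes were called lower and 0.0544% higher. Both genes and 50% of all genes had a negative value. Some other settings gave larger activated clusters with 3 mice per genotype, and edgeR called 0 of the 46 genes in each. With hashtags called by top share, 28 of 38 genes were negative (51.7% of all genes) and 6 had an unadjusted p under 0.05 (5.24%). With the highest Scrublet scores removed it was 30 of 34 (49.2%) and 10 (5.5%). At resolution 1.2 it was 7 of 7 (50.9%) and 2 (3.59%). With cycle genes in the clustering it was 2 of 2 (51.9%) and 0 (3.83%).

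Whether the genotype effect differed between cells of the GC B-like and non-GC classes was tested with each mouse as a block. Top2a was the gene of the 46 that passed (difference of log2 fold changes 1.43, SE 0.30, edgeR adjusted p = 0.00264), and 0.113% of all 9768 genes passed in that direction and 0.0717% in the other. This fit held LDHA-deficient mouse 2 as the only LDHA-deficient mouse. Its Top2a level was 1043 CPM in GC B-like cells, within the LDHA-sufficient range of 891.5 to 1157 CPM, and 62.4 CPM in non-GC B cells, below the 163.96 to 173.8 CPM of the LDHA-sufficient mice. LDHA-deficient mice 1 and 3 stood at 152.2 and 163.97 CPM in non-GC B cells. With all 6 mice the difference was 0.26 with an adjusted p of 0.874, DESeq2 gave 1.47 on the first set of mice without passing, and 0 of the 46 genes passed with all mice (5 with an unadjusted p under 0.05, against 7.57% of all genes), against 0.0538% of all genes on the lower and 0.0% on the higher side. The median of the 46 differences was 0.51 in the first fit (11 of 46 negative, 61.1% of all genes) and -0.40 with all mice (36 of 46 negative, 68.7% of all genes), where all 9301 genes had a median of -0.35.

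Counted by cell and pooled over mice, most GC B-like cells of both genotypes held several transcripts of the 46 genes, and the 11 LDHA-deficient cells leave a wide interval. Each cell was thinned to 2000 UMIs, which left out 29 LDHA-sufficient and 24 LDHA-deficient cells with fewer. Of GC B-like cells, 101 of 135 (74.8%, exact 95% binomial interval 66.6% to 81.9%) in LDHA-sufficient and 7 of 11 (63.6%, 30.8% to 89.1%) in LDHA-deficient mice held 5 or more UMIs of the 46 genes. By mouse the shares were 75.4%, 73.5% and 80.0% in the LDHA-sufficient mice, against 1 of 3, 4 of 5 and 2 of 3 cells in the LDHA-deficient mice. The pooled intervals cover counting error only and not the spread between mice. In follicular B-like cells, taken as the background, the shares were 8.68% and 6.76%, with median depths of 3274 and 3312 UMIs against 9578 and 10550 UMIs in GC B-like cells before thinning. In 13 GC B-like LDHA-sufficient cells the count was 4, 5 or 6, next to the threshold, and in 0 of the LDHA-deficient ones. Without thinning the shares in GC B-like cells were 95.7% and 11 of 11 cells.

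Over all B cells, 21.9%, 23.1% and 14.8% of cells passed 5 UMIs in the LDHA-sufficient mice, against 7.58%, 7.34% and 12.6% in the LDHA-deficient mice, with no overlap. Among these cells GC B-like cells made up 101 of 181 (55.8%) in LDHA-sufficient and 7 of 75 (9.33%) in LDHA-deficient mice. By mouse this was 64.2%, 67.6% and 20.0% against 5.00%, 15.4% and 6.90%, and LDHA-sufficient mouse 3 (8 of 40 cells, exact 95% interval 9.05% to 35.6%) lay close to LDHA-deficient mouse 2 (4 of 26 cells, 4.36% to 34.9%). Outside the GC the shares were 8.71%, 9.60% and 12.5% against 6.95%, 6.30% and 11.9%, which overlap. The third mouse of each genotype lay highest, above the follicular shares. Marginal zone B-like cells lay higher, at 23.5% and 17.1%. At 10 or more UMIs, follicular cells passed in 0 of 288 cells of LDHA-sufficient mice and 1 of 355 cells of LDHA-deficient mice, while GC B-like cells did in 57.8% and 54.5%. Mki67 had a UMI in 71.9% and 63.6% of thinned GC B-like cells (follicular 9.72% and 11.8%), Top2a in 56.3% and 54.5% (7.99% and 9.58%), Ccnb1 in 15.6% and 9.09% (1.39% and 0.845%), and Cdk1 in 14.8% and in 0 of 11 cells (0.694% and 2.25%). Before thinning Cdk1 had a UMI in 43.2% and 18.2% of GC B-like cells, so the 0 is one of thinned cells.

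Other genes of the cycle were counted in lists that are no part of the 46. Of 66 other G2 and mitosis genes 61 were tested, 10 fell, 0 rose and 59 had a negative value (median -1.14). The smallest p were those of the nuclear import receptor Kpna2 (-1.09, edgeR adjusted p = 0.00663), Sgo1, the guardian of centromere cohesion (-1.55, adjusted p = 0.00663), the centromere protein gene Cenpw (-1.25, adjusted p = 0.00859) and the spindle checkpoint gene Mad2l1 (-1.22, adjusted p = 0.0097). Of 65 S phase genes 64 were tested, 2 fell and 64 had a negative value (median -0.88), led by the histone chaperone Asf1b (-1.59, adjusted p = 0.00663) and the clamp loader subunit Rfc5 (-1.09, adjusted p = 0.046). Tipin (-0.97, adjusted p = 0.0567) and Gins2 (-1.20, adjusted p = 0.0638) of the replication fork followed without passing. Among activators of late cell cycle transcription 0 of 13 passed (median -0.38), and among repressors and cycle inhibitors 0 of 14 (median 0.01). In GC B-like cells the median of the other G2 and mitosis genes was -0.05 and that of S phase genes 0.13, with 0 calls in either list. Whether the composition of the B cells sets the difference in single genes over all B cells was not tested beyond the split above.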

How the data were processed

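The 46 genes, the gene lists and the cell type markers were chosen with earlier results of these data known. UMI counts per gene and hashtag counts per barcode were deposited by the authors, made with Cell Ranger on mm10 per the submitters' processing notes (version 6.0.0 there, 6.0.2 per the file headers). Hashtags were assigned with HTODemux of Seurat 5.3.0 (positive quantile 0.99): 1856 barcodes had 1 hashtag, 820 several and 155 none. Barcodes needed 500 genes, 1000 UMIs and at most 10% mitochondrial UMIs, which left 1849. Of these, 50 with more myeloid, T or NK than pan B marker UMIs were removed, a rule chosen after seeing the data, leaving 1799. Hashtags cannot show doublets of 1 mouse, of which about 167.2 are estimated to remain, and Scrublet called 0, so removing the 167 highest scores was an alternative. Cells were clustered in scanpy 1.11.5 (2000 variable genes without the cell cycle genes left out as stated above, 30 components, 20 neighbours, Leiden resolution 0.8). Clusters were named where 3 fixed markers were 1.5-fold up. For each mouse and class, counts were added up and tested with edgeR 4.0.16 (quasi-likelihood, TMM, filterByExpr, Benjamini-Hochberg over all genes tested, threshold 0.05), with DESeq2 1.42.0 as an alternative. GC B-like sums needed 5 cells per mouse and other classes 20. The test was checked on simulated data for all B cells with 3 mice against 3 only. Fits within classes, fits with 1 mouse on a side and the difference of effects were not checked in this way. The sources used here do not say whether the mice came from separate litters or days. Named with values are Mki67, Top2a, Cdk1, Ccnb1, Plk1 and Aurkb, the 2 genes of each role with the smallest p over all B cells, any gene past the threshold within a class or in the difference of effects, the 3 highest and 3 lowest ratios of GC B-like to non-GC level, Ldha, and the 4 smallest p of the other G2 and mitosis list and of the S phase list. Other genes named were chosen after their values were seen. A GC marker gene, and a marker list that holds it, are not reported here.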

Additional observations from a re-analysis of the deposited data

Results flagged for a closer look

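The genotype effect on Top2a differed between cells of the GC B-like and non-GC classes by 1.43 on the log2 scale (SE 0.30, edgeR adjusted p = 0.00264) in the test that held 3 LDHA-sufficient mice and LDHA-deficient mouse 2. The difference was 0.26 with all 6 mice (adjusted p = 0.874) and -0.34 with all mice but LDHA-deficient mouse 2, so that it rests on that mouse.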

How the results depend on the processing

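No paired analysis was possible because the labels give libraries, not mice, and hashtag numbers pair no mice. Over all B cells, 36 of the 46 genes fell when every gene with a count was tested (2.97% of all genes lower), and between 0 and 41 when 1 mouse was left out (0.0108% to 9.0% of all genes). In GC B-like cells the median log2 fold change was -0.22, -0.27 and -0.26 without LDHA-sufficient mouse 1, 2 and 3. LDHA-deficient mouse 2 was alone on its side in these fits. Calls among the 46 genes were not the same in each of them and are not given for that reason. Clustering with cycle genes turned the median to 0.13, with and without a minimum of cells, but there the 46 genes helped to set the clusters. For the difference of effects, 0 genes passed with DESeq2, with cycle genes in the clustering, without LDHA-sufficient mouse 2, and with no minimum of cells (also with DESeq2 or cycle genes), against 0 to 1 when 1 mouse was left out. With no minimum, leaving out 1 mouse gave 0 calls (0.0324% to 0.109% of all genes lower and 0.0109% to 0.0652% higher) except without LDHA-deficient mouse 2. There Cenpf and Cenpe made 2 calls, against 0.143% of all genes lower and 0.011% higher, and Top2a turned to -0.34. The median of the differences turned to -0.40 with no minimum, -0.25 with DESeq2 added, and -0.46, -0.56 and -0.29 without LDHA-sufficient mouse 1, 2 and 3 and -0.11, -0.82 and -0.18 without LDHA-deficient mouse 1, 2 and 3. The share part of the summed level was 62.8% to 79.4% when 1 mouse was left out. It was 109% with cycle genes in the clustering, where the 46 genes helped to set the classes. The cause of these changes was not tested. Fits of GC B-like cells and of the difference with the minimum could not be fitted without LDHA-deficient mouse 2, those of activated cells without LDHA-sufficient mouse 2 or at resolution 0.4. With 11 LDHA-deficient GC B-like cells, depth limits every statement on levels within the GC.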
